A study of Mus musculus with 72 samples.

Results

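The late dark phase comprised the time points t20 and t22, when the animals had been in darkness since lights off at t12. It held 12 of the 72 liver arrays of the series, 6 of *Scp2* KO mice (3 at t20 and 3 at t22) and 6 of wild-type (WT) mice (3 and 3), and the arrays were chosen by their time labels alone. In the study the KO mice are described as lacking the entire *Scp2* locus. This locus encodes the sterol carrier protein SCP2 and the peroxisomal thiolase SCPx. The KO mice had been backcrossed into C57Bl/6. The WT mice were C57Bl/6J. All animals of both genotypes were males of 10 to 12 weeks, were kept in a cycle of 12 h light and 12 h dark with t0 at lights on, and were fed only at night for 4 days before they were killed. Biotin-labelled RNA was measured on Illumina BeadChips, which read out each mRNA as the brightness of a probe. Levels are log2 intensities after normalization of the 72 arrays together, a difference is always KO minus WT on that scale, and a difference of 1 is a change of 2 fold. Genotypes were compared over 16593 genes with limma, in a model with a mean for each genotype at each of 12 time points, so that the time of day was accounted for. An adjusted p (Benjamini-Hochberg, over all genes) under 0.05 counts as passing the test.

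SCP2 moves cholesterol and other lipids between membranes in the cell, and SCPx cuts the side chain of branched fatty acids and bile acid precursors in the peroxisome. The cholesterol pathway of the liver is driven by the transcription factor SREBP2, which is activated when sterols in the endoplasmic reticulum are scarce. Genes of fatty acid oxidation in mitochondria and peroxisomes are driven by the nuclear receptor PPARα, which binds fatty acids and their derivatives. In nocturnal mice that eat at night, the late dark phase is the end of the feeding period.

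The median signal of the 12 arrays before normalization lay between 101 and 112 in KO and between 96.6 and 114 in WT, and the median rank correlation of each with the other arrays lay between 0.883 and 0.907, inside the range over the whole series (0.855 to 0.908). The 7 hepatocyte markers were bright in all 12 arrays, with a summed linear intensity of 39600 to 43800 in KO and 39900 to 45200 in WT, and none of them passed the test. The deletion was visible on the arrays, though not alike on every probe. Of 4 *Scp2* probes, ILMN_2705886 read 5.97 to 6.03 in the 6 KO arrays and 12.79 to 13.10 in the 6 WT arrays, and ILMN_2705881 read 5.77 to 5.94 in KO and 12.11 to 12.55 in WT. The third probe, ILMN_1221684, read 10.03 to 10.81 in KO and 11.54 to 11.97 in WT, a difference of -1.29 (SE 0.12, adjusted p = 1.3e-11). Its signal in KO stayed far above that of the probes named before it, and the source of that signal was not tested. As the brightest on average across KO and WT together, ILMN_1221684 stands for *Scp2* in the counts over genes. The fourth, ILMN_2651412, lay between 5.67 and 5.86 in all 12 arrays and checks nothing.

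In the late dark phase 193 genes were higher in KO (1.16% of the genes tested) and 164 were lower (0.988%), and 1682 genes had an unadjusted p under 0.05. Leaving out 1 of the 12 arrays at a time gave 263 to 390 genes. The median of the differences was 0.42 over the genes that rose and -0.35 over those that fell, against -0.002 over all genes, and 25 genes rose and 5 fell by more than 1. All 357 had the same sign at t20 and at t22. For 110 of those that rose and 72 of those that fell the 6 KO and the 6 WT arrays did not overlap. Over all genes the KO arrays lay wholly above the WT arrays for 0.922% and wholly below for 0.663%. The 357 were chosen by the same 12 arrays, so the shared sign and the separation follow in part from that choice. Scaling the arrays to a common median in place of quantile normalization left 138 higher and 49 lower, so that the share of rises was larger on that scale. Taken singly, t20 gave 105 higher (0.633%) and 59 lower (0.356%) genes and t22 gave 57 higher (0.344%) and 36 lower (0.217%), and 72 genes passed at both times. Leaving out 1 array gave 91 to 282 genes at t20 and 52 to 108 at t22.

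Genes of cholesterol synthesis formed the group with the largest share of rises. Of 16 measured, 12 rose and none fell, the median difference over the 16 was 0.81, and 11 or 12 rose when any 1 array was left out. *Hmgcs1*, which makes the HMG-CoA from which the pathway starts, had a lowest, median and highest level of 13.44, 13.70 and 13.91 in KO and of 11.50, 12.08 and 13.40 in WT. The difference was 1.45 (SE 0.20, adjusted p = 1.4e-06) and the 2 groups did not overlap, although the brightest WT array came close to the dimmest KO array. *Fdps*, which makes farnesyl diphosphate, read 12.24, 12.64 and 12.80 in KO and 10.28, 11.22 and 11.95 in WT, a difference of 1.39 (SE 0.16, adjusted p = 6.5e-09). *Cyp51*, the lanosterol demethylase, read 9.36, 9.49 and 9.65 in KO and 7.88, 8.24 and 8.66 in WT, a difference of 1.27 (SE 0.14, adjusted p = 1.3e-09). *Msmo1*, the oxidase that follows it, showed the largest difference of the list at 1.52 (adjusted p = 5.9e-07). The KO arrays were all above the WT arrays for these 4 genes, and the spread was wider in WT (SD 0.66 for *Hmgcs1*, n = 6) than in KO (SD 0.16, n = 6). The enzymes *Nsdhl*, *Hsd17b7*, *Sqle*, *Lss*, *Pmvk*, *Mvd*, *Dhcr7* and *Tm7sf2* rose by 0.51 to 1.18. *Idi1* (0.45, adjusted p = 0.23), *Ebp* (0.27), *Sc5d* (0.02) and *Ggps1* (0.00) did not pass the test. Of the 10 genes of SREBP2 control and cholesterol uptake only *Srebf2*, which encodes SREBP2 itself, rose (0.27, adjusted p = 0.0098), and *Insig1*, which retains SREBP2 in the endoplasmic reticulum, differed by 0.10 without passing.

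The promoters of 2 of these genes are shown because the group moved together. Each run is the 250 bases before the annotated start, in the direction of the gene, taken from RefSeq on GRCm38.p6, with CCAAT and the sterol regulatory element TCACNCCAC of either strand in capitals.
Hmgcs1, chr13:119690101-119690350, plus strand: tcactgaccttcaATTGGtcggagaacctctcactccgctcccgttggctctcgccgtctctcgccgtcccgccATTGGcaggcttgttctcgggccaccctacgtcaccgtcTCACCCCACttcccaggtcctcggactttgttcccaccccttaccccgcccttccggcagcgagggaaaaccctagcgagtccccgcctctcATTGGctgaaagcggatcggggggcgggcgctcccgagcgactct
Cyp51, chr5:4104698-4104947, minus strand: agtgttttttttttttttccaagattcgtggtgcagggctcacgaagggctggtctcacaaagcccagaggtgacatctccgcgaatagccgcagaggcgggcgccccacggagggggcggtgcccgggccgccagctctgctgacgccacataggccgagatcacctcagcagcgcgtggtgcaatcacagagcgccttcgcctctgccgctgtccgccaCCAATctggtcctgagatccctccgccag
A promoter was available for 13336 of the genes and for 10 of the 12 cholesterol genes that rose. All 10 held CCAAT, which 39.6% of the 13336 promoters hold. TCACNCCAC occurred in 1 of the 10, that of *Hmgcs1*, and in 1.27% of all promoters. Among the 15 promoters of PPARα targets that rose, 3 (those of *Acadm*, *Acadvl* and *Plin2*) held the nuclear receptor core motif AGGTCA, against 14.3% of all, and none held 2 copies of it spaced by 1 base, against 0.045% of all. These matches describe the letters of the windows only.

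**Figure D1:**
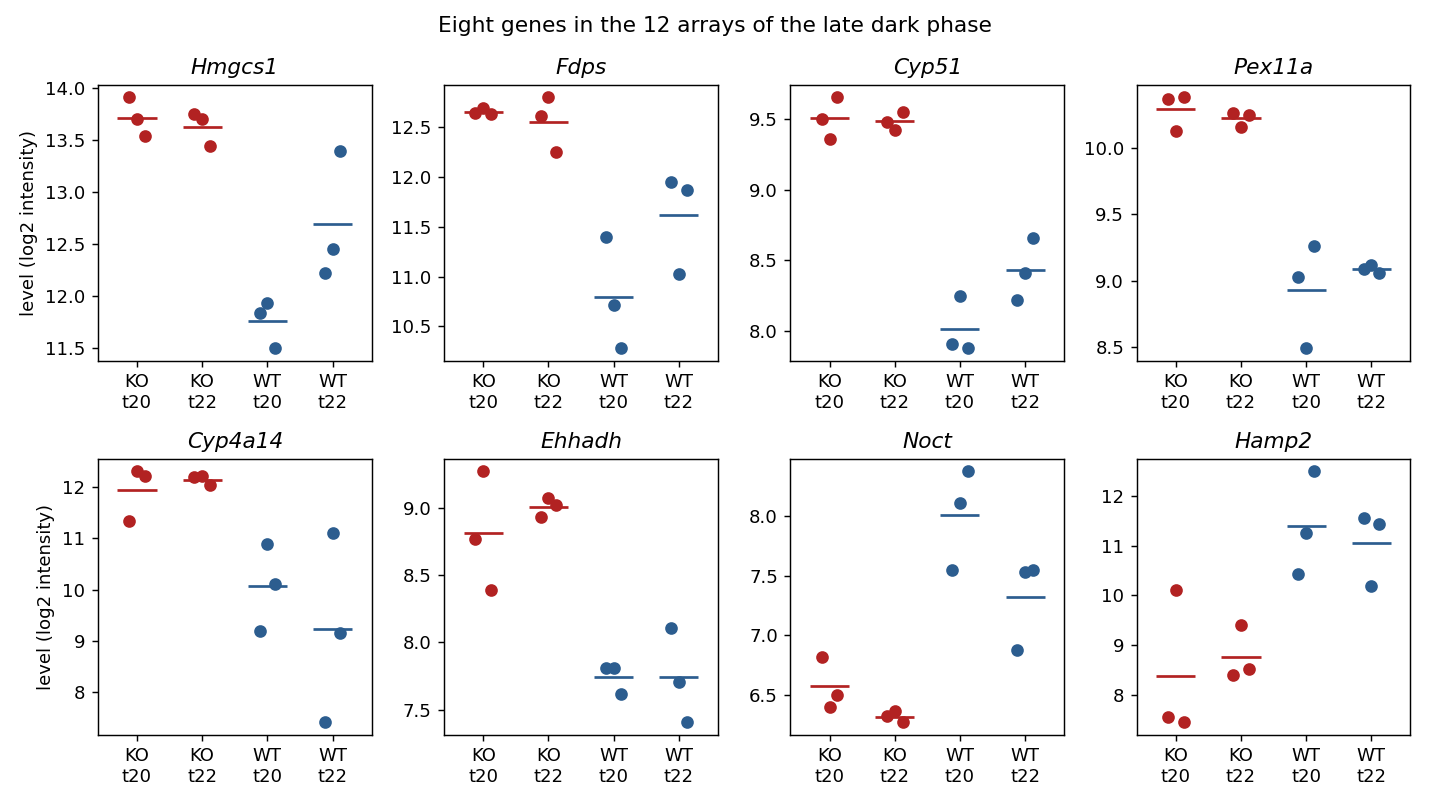
Level of 8 genes in each of the 12 arrays (vertical axes, log2 intensity, each panel with its own range), with KO in red at t20 and t22 and WT in blue at t20 and t22. Points are arrays and bars are means of 3 arrays. In all 8 panels the 6 KO arrays lie on one side of the 6 WT arrays, above for the first 6 genes and below for *Noct* and *Hamp2*.

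The differences of the cholesterol enzymes at t20 and at t22 are given side by side, with no test of the list. The median difference over the 16 genes was 1.15 at t20 and 0.46 at t22, and it was larger at t20 for 15 of 16. Between t20 and t22 the median change of these genes was -0.10 in KO and 0.46 in WT, against -0.0003 in KO and -0.0019 in WT over all genes. *Hmgcs1* read 13.91, 13.70 and 13.54 in KO at t20 and 11.84, 11.94 and 11.50 in WT at t20, and it read 13.75, 13.70 and 13.44 in KO at t22 and 12.22, 12.45 and 13.40 in WT at t22. The levels in KO were alike at both times and the WT arrays were higher at t22, by one array in particular. The difference of the differences was -1.02 for *Hmgcs1* (unadjusted p = 0.016) and -0.92 for *Fdps* (unadjusted p = 0.0055), and neither passed after adjustment. Over all genes none passed the comparison of t22 with t20, and 514 had an unadjusted p under 0.05. When the t20 WT array of set 10 was left out, *Nup210* and *Psip1* passed it, and the genes passing at t20 numbered 282.

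Targets of PPARα were the largest group of rises. Of 46 measured, 21 rose and none fell, with a median of 0.34 (19 to 23 rose when any 1 array was left out). *Cyp4a14*, a microsomal fatty acid hydroxylase, had the largest rise of any gene. Its lowest, median and highest levels were 11.34, 12.20 and 12.31 in KO and 7.42, 9.66 and 11.11 in WT, a difference of 2.40 (SE 0.53, adjusted p = 0.0036), and the wide spread was in WT. *Pex11a*, which acts in the division of peroxisomes, read 10.13, 10.25 and 10.38 in KO and 8.49, 9.08 and 9.26 in WT, a difference of 1.25 (SE 0.11, adjusted p = 1.6e-11). Its 3 probes all rose, by 0.64 to 1.25. *Ehhadh*, a peroxisomal enzyme of beta-oxidation, read 8.39, 8.97 and 9.27 in KO and 7.41, 7.76 and 8.11 in WT, a difference of 1.16 (SE 0.16, adjusted p = 1e-06). *Aldh3a2*, which oxidizes fatty aldehydes, rose by 1.12, the thiolase *Acaa1b* by 0.97 and the peroxisomal fatty acyl transporter *Abcd3* by 0.71. *Cpt1a* (-0.05) and *Fgf21* (0.11), both widely used as markers of this receptor's activity, did not pass the test, nor did *Acot3*, *Acot4* and *Cd36*, at -0.12 to -0.04.

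The enzymes of mitochondrial beta-oxidation had a smaller median difference, with no test between the lists. Of 18 measured, 6 rose and none fell, with a median of 0.24. The lists overlap: *Acadm*, *Aldh3a2*, *Acot8* and *Plin2* are among the PPARα targets that rose and are counted again in this or later lists. *Slc25a20*, which carries acylcarnitine into mitochondria, read 10.65, 10.79 and 10.81 in KO and 9.82, 10.21 and 10.38 in WT, a difference of 0.59 (adjusted p = 2.3e-07), *Acadm* rose by 0.47, and *Decr1* and *Eci1*, which process unsaturated fatty acids, rose by 0.54 and 0.52. Of 3 *Slc25a20* probes one, near the lowest values of the array, differed by only -0.01. Of 14 genes of branched-chain lipid oxidation, the process in which SCPx itself acts, 4 rose and none fell: *Aldh3a2*, *Hsd17b4* (0.44), the thioesterase *Acot8* (0.62) and the very long chain acyl-CoA synthetase *Slc27a2* (0.42). *Slc27a2* lost its call when any of 7 of the 12 arrays was left out (adjusted p up to 0.13). Of 13 genes of peroxisome biogenesis 3 rose, *Pex11a*, *Pex16* (0.36) and *Pex11g* (0.31), the last of which also lost its call without any of 8 arrays (adjusted p up to 0.24) and with the replicate block (0.051). With median scaling only *Pex11a* passed, and with the 12 arrays fitted alone neither *Pex16* (0.15) nor *Pex11g* (0.38) did.

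Lipid droplet proteins and bile acid enzymes were also among the rises. Of 16 lipid droplet and lipolysis genes 4 rose and none fell. *Fitm1*, which promotes the budding of droplets, read 6.88, 6.98 and 7.28 in KO and 6.0, 6.10 and 6.25 in WT, a difference of 0.92 (adjusted p = 3e-11). *Fitm2* rose by 0.67, the droplet coat protein *Plin2* by 0.60, and *Hilpda*, an inhibitor of lipolysis, by 0.34, with an adjusted p of 0.053 without the t20 WT array of set 6 and of 0.089 without the t22 WT array of set 6. Of 24 genes that make or carry bile acids 5 rose and 1 fell. *Cyp7b1*, of the alternative pathway, rose by 1.01, and *Cyp8b1*, which makes the 12-hydroxylated bile acids, by 0.61, while the uptake carrier *Slco1a4* fell by 0.46. With median scaling 3 rose and none fell, *Cyp8b1* (adjusted p = 0.092) and *Slco1a4* (0.054) among those lost, and *Cyp7b1* did not pass with the 12 arrays fitted alone (0.076). *Pltp*, the phospholipid transfer protein, read 7.74, 8.48 and 9.21 in KO and 6.78, 7.12 and 7.55 in WT and rose by 1.37 (adjusted p = 1.6e-06), the only one of 15 LXR targets that passed.

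Among the largest rises outside these pathways, *Hyi*, a hydroxypyruvate isomerase, read 10.02, 10.30 and 10.69 in KO and 8.33, 8.70 and 9.02 in WT, a difference of 1.61 (SE 0.16, adjusted p = 1.2e-10). *Cyp4a12b*, a male-biased arachidonic acid hydroxylase, read 11.94 to 12.05 in KO and 9.12 to 11.12 in WT, a difference of 1.52, and its near copy *Cyp4a12a* rose by 1.31. Of 21 genes of the growth hormone axis and male-biased expression, these 2 and *Cyp7b1* rose and *Igfals* fell (-0.44, adjusted p = 0.048), the last losing its call without any of 8 arrays (adjusted p up to 0.17). Probes of such near copies may pick up both transcripts. *Mfsd2a*, a carrier of lysophospholipids, rose by 1.36 and *Clstn3* by 1.34. *Moxd1* rose by 1.79 (adjusted p = 0.026), with levels of 7.80, 5.89 and 9.70 in KO at t20 and 8.37, 5.94 and 8.33 in KO at t22, and of 5.81 to 5.97 in WT. At each time 1 of 3 KO arrays, that of set 5, lay at the WT level, and the call was lost without any of 7 arrays (adjusted p up to 0.20).

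Falls were fewer among the listed pathways. *Hamp2*, a hepcidin of iron metabolism, had the largest fall when each gene is represented by 1 probe (the other *Scp2* probes given above fell further), with levels of 7.46, 8.46 and 10.11 in KO and 10.19, 11.34 and 12.49 in WT, a difference of -2.65 (SE 0.52, adjusted p = 0.00071), and it was the only one of 14 iron genes that passed. *Noct*, a rhythmic phosphatase once classed as a deadenylase and a known output of the clock, read 6.27, 6.38 and 6.82 in KO and 6.88, 7.55 and 8.38 in WT, a difference of -1.22 (SE 0.17, adjusted p = 1.8e-06), on the brighter of its 2 probes. A dimmer *Noct* probe differed by 0.09. *Bsdc1* had the smallest adjusted p among the probes that represent genes (9.2e-20, above that of the 2 *Scp2* probes at background in KO), with 6.38, 6.53 and 6.63 in KO and 7.47, 7.71 and 7.95 in WT, a difference of -1.18 (SE 0.07). *Cyp2b10*, the target of the receptor CAR, fell by 1.23, with an adjusted p of 0.06 without the t20 WT array of set 9, the brightest of the 6. *Etnppl*, an ethanolamine phosphate lyase, and *Tmem254a* both fell by 0.98, *Ly6e*, an interferon-induced membrane protein, by 0.86, *Olig1* by 0.81 and *Mug2*, a protease inhibitor, by 0.80.

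Of 17 genes of apolipoproteins and VLDL assembly 4 fell and none rose. *Apom*, an apolipoprotein of HDL, read 10.28, 10.42 and 10.76 in KO and 10.87, 10.95 and 11.11 in WT, a difference of -0.51 (adjusted p = 3.9e-06). *Apoa4* fell by 0.79, *Tm6sf2*, which acts in the lipidation of VLDL, by 0.51 and *Lcat*, which esterifies cholesterol on HDL, by 0.25. With median scaling *Apoa4* (adjusted p = 0.072) and *Lcat* (adjusted p = 0.82) did not pass, and *Lcat* also did not pass without the t22 WT array of set 10 (adjusted p = 0.061). *Khk* and *Pklr*, the first enzyme of fructose use and the last of glycolysis in the liver, fell by 0.57 and 0.66, the 2 falls among 15 genes of sugar use. *Khk* did not pass with median scaling (adjusted p = 0.24) or with the 12 arrays fitted alone (0.068), nor did *Pklr* with the 12 arrays alone (0.13). *Pklr* was dim, at 6.08 to 6.77 in KO and 6.47 to 7.77 in WT. Its other probes were dimmer still and differed by -0.34 and -0.03. Of 23 genes of fatty acid synthesis 1 rose (*Acss2*, 0.96) and 2 fell (*Pklr*, and *Dgat2*, -0.32). *Acss2*, which makes acetyl-CoA from acetate, lost its call without the t22 WT array of set 6 (adjusted p = 0.07) or the t20 WT array of set 9 (adjusted p = 0.059), and *Dgat2* lost its call without any of 8 arrays (adjusted p up to 0.078). Of 7 periportal hepatocyte markers *Hal*, *Aldh1b1* and *Cdh1* fell, and of 12 pericentral markers *Oat* rose (0.63). The histidine-degrading enzyme *Hal* read 10.01, 10.33 and 10.62 in KO and 10.71, 11.05 and 11.13 in WT, a difference of -0.65 (adjusted p = 8.2e-05). With median scaling none of the 3 periportal falls passed. *Aldh1b1* lost its call without any of 7 arrays (adjusted p up to 0.31), and *Cdh1* without the t20 WT array of set 6 (adjusted p = 0.082).

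In the core loop of the clock 1 of 16 genes passed. *Rora*, an activator of *Arntl* (*Bmal1*), fell by 0.35 (adjusted p = 0.021), and the call was lost without any of 6 arrays (adjusted p up to 0.11). *Arntl* (-0.11), *Per2* (-0.16), *Nr1d1* (-0.05) and *Clock* (0.06) did not pass. None of 18 gluconeogenesis and fasting genes, 19 genes of the unfolded protein response, 18 of the ATF4 response, 14 heat shock genes, 46 ribosomal proteins or 20 cell cycle genes passed. Of 37 interferon-induced genes only *Ly6e* fell here (1 to 4 fell when 1 array was left out), against 14 at the 10 other times, for which 60 arrays were compared. Over all genes 0.988% were lower here and 6.95% at those times.

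Few markers of other cells passed the test. Of 18 endothelial markers *Flt1* fell (-0.28, adjusted p = 0.008), and it did not pass without the t20 KO array of set 6 (0.057), without the t20 WT array of set 6 (0.068) or with median scaling (0.58). At the 10 other times, with 60 arrays compared, 11 of the 18 passed as lower and none as higher, against 6.95% lower and 6.53% higher over all genes. The endothelial median was -0.13 at those times, against -0.03 here. None of 11 Kupffer cell and macrophage markers passed. Their median difference was 0.31 and 10 of 11 were above zero, against a median of 0.06 at the 10 other times and of -0.002 over all genes here, and their part in the other results was not tested. Their summed linear intensity was 1940 to 2750 in KO and 1150 to 2590 in WT. In whole liver, fewer cells of a type and less RNA per cell cannot be told apart. None of the stellate, bile duct, lymphocyte, neutrophil, red cell, adipocyte or pancreas markers passed. The summed red cell markers ranged from 1450 to 4390 in KO and from 1250 to 6260 in WT, and the part of blood in these results was not tested.

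Many of the genes lie on the chromosome of the deleted locus. On chromosome 4, 25 of 968 genes rose and 17 fell (4.34%), the highest share of any chromosome, against 1.16% higher and 0.988% lower over all genes. Chromosome 12, which does not carry the locus, came close, with 9 of 486 higher and 11 lower (4.12%). Within 5 Mb of *Scp2* 4 of 65 rose and 2 fell, within 20 Mb 15 of 310 rose and 6 fell, and farther away 10 of 657 rose and 10 fell. Of the 10 largest rises, *Cyp4a14*, *Hyi*, *Cyp4a12b* and *Mfsd2a* lie there, and *Bsdc1* and *Scp2* are among the 10 largest falls. *Plin2*, *Cpt2*, *Decr1* and *Cyp4a31* of the lists above are also on chromosome 4. With chromosome 4 left out, an alternative chosen after seeing the data, 315 genes passed. Whether a difference near the locus follows from the loss of *Scp2* or from sequence linked to it cannot be told apart in these groups.

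The second question was which of these differences belong to the late dark phase and not to the rest of the day. Of the 357 genes, 340 (95.2%) also passed with the same sign when KO and WT were compared over the 10 other times, and these made up 15.2% of the 2237 genes that passed there (1084 higher, 6.53%, and 1153 lower, 6.95%). No gene passed in both with opposite signs. At the 10 other times taken one by one, 268 of the 357 had the same sign at all 10 and 55 at 9. Of the 2237 genes, 2088 (93.3%) had the same sign in the late dark phase. The difference of *Hmgcs1* was 1.45 in the late dark phase and 1.56 at the other times, that of *Cyp4a14* 2.40 and 2.87, that of *Noct* -1.22 and -1.27, and that of *Hamp2* -2.65 and -2.52. The median of the cholesterol list was 0.81 and 0.91, and that of the PPARα list 0.34 and 0.37.

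**Figure D2:**
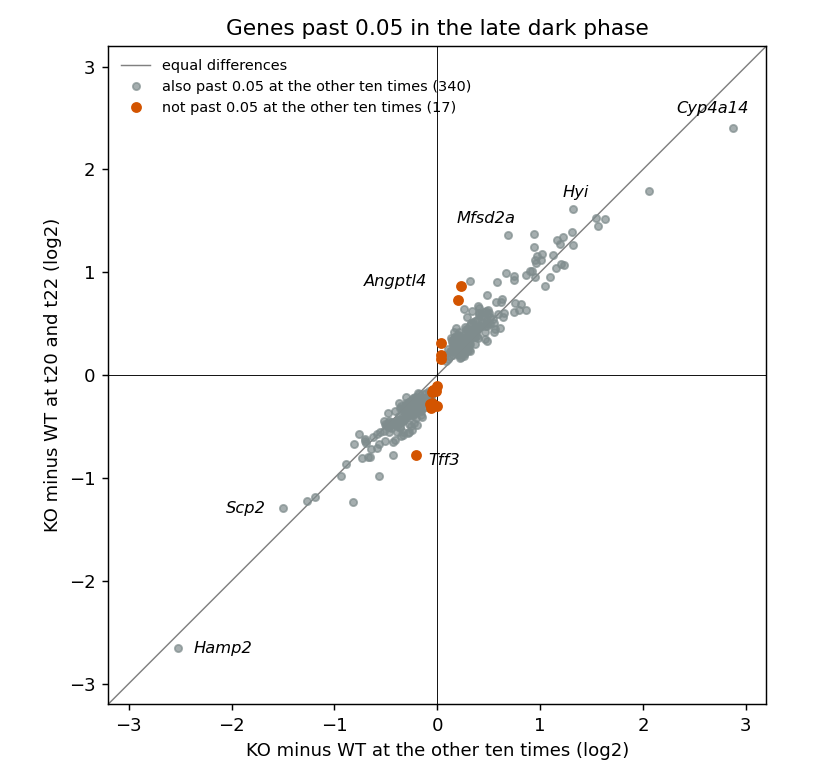
KO minus WT in the late dark phase (vertical axis, log2) against KO minus WT over the 10 other time points (horizontal axis, log2) for the 357 genes that passed the test in the late dark phase. Grey points are the 340 that also passed at the other times, orange points the 17 that did not, and the grey line marks equal differences. No point lies in the upper left or lower right quadrant, and the orange points lie close to zero on the horizontal axis.

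The direct comparison of the 2 sets of differences, late dark phase minus the 10 other times, was passed by no gene. The lowest adjusted p was 0.77, and 529 genes (3.19%) had an unadjusted p under 0.05. Quantile and median scaling, no background correction, the deposited values, all probes, array weights and leaving out any 1 of the 12 arrays also gave none. For 97.9% of all genes, and for 316 of the 357 (88.5%), the whole 95% interval of the difference of the differences lay within 0.5 of zero. That bound is wider than the median size of the 357 differences themselves (0.39), so it does not show for a typical gene that the differences were equal. An unadjusted p under 0.05 was found for 62 of the 357 (17.4%), which were selected by their values in the late dark phase and from which nothing is read. For *Hmgcs1* it was -0.11 (95% interval -0.56 to 0.34), for *Fdps* 0.08 (-0.27 to 0.43), for *Ehhadh* 0.04 (-0.31 to 0.40) and for *Bsdc1* 0.00 (-0.14 to 0.15). For the variable genes *Cyp4a14* (-1.64 to 0.69) and *Hamp2* (-1.27 to 1.02) differences of more than 1 lie within the interval. Against the neighbouring times no gene passed either, with 582 genes at an unadjusted p under 0.05 against t16 and t18 and 528 against t0 and t2. *Boll* passed against t16 and t18 when the t20 WT array of set 6 was left out.

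Set beside the 5 other pairs of neighbouring times, the late dark phase had the fewest genes that passed between genotypes, 357 against 448 to 607. The pair t12 and t14, just after lights off, had the most (607), and it was also the only pair with more than 1 gene whose difference stood apart from the other 10 times (21 higher and 12 lower). The pairs share no arrays, but each comparison with the other times draws on the same 72.

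**Figure D3:**
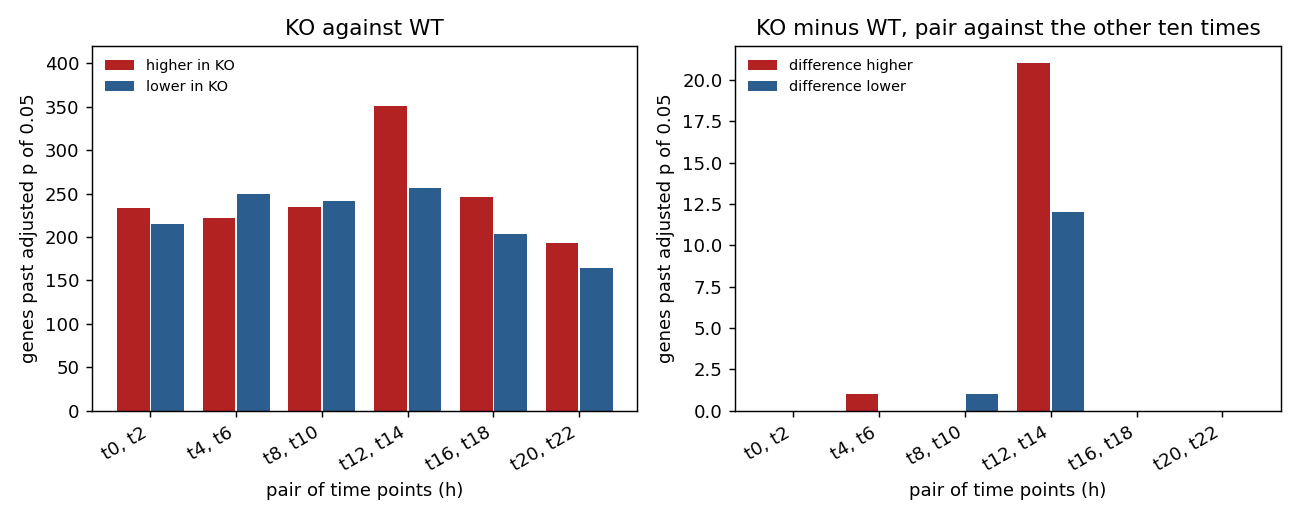
Number of genes with an adjusted p under 0.05 (vertical axes) for each pair of neighbouring time points (horizontal axes, hours after lights on). On the left KO is compared with WT within the pair, with genes higher in KO in red and lower in blue, and on the right the KO minus WT difference of the pair is compared with that of the 10 other times. The late dark phase (t20, t22) has 193 and 164 genes on the left and none on the right.

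The genes with the lowest unadjusted p in the direct comparison are given as the nearest candidates, chosen after their values were seen, and each has an adjusted p of 0.77 or above. *Rnf144a*, an E3 ubiquitin ligase, came first (unadjusted p = 4.7e-05). It read 6.03, 6.08 and 6.14 in KO and 6.44, 6.62 and 6.78 in WT, a difference of -0.53 (SE 0.06, adjusted p = 3.5e-09), against -0.25 at the 10 other times, so that the difference of the 2 was -0.29 (95% interval -0.42 to -0.16). The mean level in KO lay between 5.98 and 6.15 at all 12 times. In WT it lay between 6.47 and 6.65 from t20 over lights on to t6 and between 6.08 and 6.26 from t8 to t18. The *Scp2* probes ILMN_2705886 and ILMN_2705881 read 5.77 to 6.03 in KO in the late dark phase. *Rnf144a* thus lay at or near background in KO, and in WT near it from t8 to t18. A lower level in KO could not have been read, which limits the size of the difference. The difference was -0.52 and -0.54 at t20 and t22, -0.37 to -0.54 from t0 to t6, and -0.21 to -0.03 from t8 to t18, so the late dark phase shared it with the first hours of light. Against the 4 other times in the dark alone, *Rnf144a* passed (-0.41, adjusted p = 0.0083), the only gene that did. Other named genes also had 1 genotype near background in the late dark phase, which limits their differences alike. In KO these include *Olig1* (6.06 to 6.45), *Cyp2b10* (6.12 to 6.53) and *Tff3* (6.04 to 6.37). In WT they include *Fitm1* (6.0 to 6.25) and *Moxd1* (5.81 to 5.97).

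*Csrp3*, a LIM protein best known from muscle, came second (unadjusted p = 0.00031). It read 8.79, 8.87 and 9.34 in KO and 7.17, 8.23 and 8.36 in WT, a difference of 0.91 (SE 0.14, adjusted p = 9.8e-06), against 0.32 at the other times, and all of its 3 probes rose in the late dark phase. It differed by 0.88 and 0.59 at t16 and t18 as well, and by -0.07 at t12. *Hspa8*, a constitutive HSC70 chaperone, differed by 0.71 at t22 (adjusted p = 0.047) and by 0.11 at t20, against -0.08 at the other times (unadjusted p of the comparison 0.00094). *Trmt9b* rose by 0.38 in the late dark phase and by 0.18 at the other times. *Mrpl15*, *Fam3b*, *Selenoh*, *Clcn1*, *Hpcal1* and *H2bc12* completed the first 10, and none of these 6 passed between genotypes in the late dark phase.

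**Figure D4:**
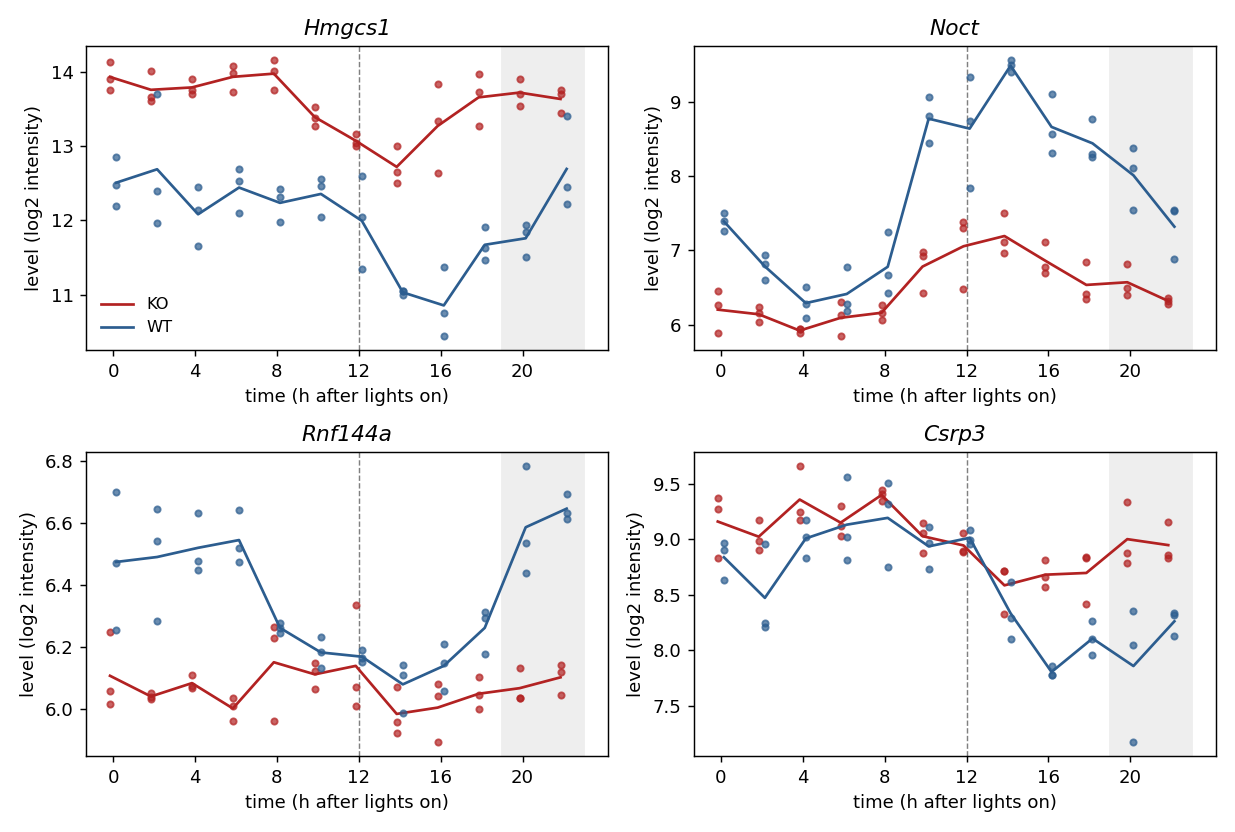
Level of *Hmgcs1*, *Noct*, *Rnf144a* and *Csrp3* (vertical axes, log2 intensity) over the 12 time points (horizontal axes, hours after lights on), with KO in red and WT in blue. Points are arrays, lines join the means of 3 arrays, the grey band marks t20 and t22 and the dashed line marks lights off. *Hmgcs1* is higher and *Noct* lower in KO at every time by the means, *Rnf144a* separates from t20 to t6, and *Csrp3* separates most from t16 to t22.

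The 17 genes that passed in the late dark phase but not over the other times (5 higher, 12 lower) are likewise a description, since passing in one set and not in the other does not show that the sets differ. All had the same sign in both. *Angptl4*, an inhibitor of lipoprotein lipase and a PPARα target, read 9.07, 9.56 and 10.16 in KO and 8.24, 8.70 and 9.31 in WT, a difference of 0.86 (SE 0.22, adjusted p = 0.019), against 0.23 at the other times, where single times ranged from -0.19 to 1.24. The 95% interval of the difference of the 2 was 0.14 to 1.12 (unadjusted p = 0.013). The call was lost without the t22 KO array of set 4, the t20 KO array of set 6, the t20 WT array of set 6 or the t22 WT array of set 9 (adjusted p 0.078 to 0.088). *Tff3*, a trefoil factor, differed by -0.77 (adjusted p = 0.0074), with 6.04 to 6.37 in KO and 6.18 to 8.78 in WT, where 1 array, that of set 6 at t20, stood apart (the next was at 6.90). Without that array the difference was -0.39 (adjusted p = 0.039), and with the 12 arrays fitted alone *Tff3* did not pass (adjusted p = 0.42). *Tuba8* showed the same array apart, at 7.28 against 6.08 to 6.23 in the other 5 WT arrays, and its call was lost without any of 9 of the 12 arrays (adjusted p up to 0.31, without that one). *Gldc*, of glycine breakdown, differed by -0.32 (adjusted p = 0.029), and the call was lost without any of 7 arrays (adjusted p up to 0.16). *Aatk* (0.73), *Rtf2* (0.31), *Rae1* (0.20) and *Exog* (0.16) were the other 4 that rose, and the other 9 falls were between -0.30 and -0.10.

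**Figure D5:**
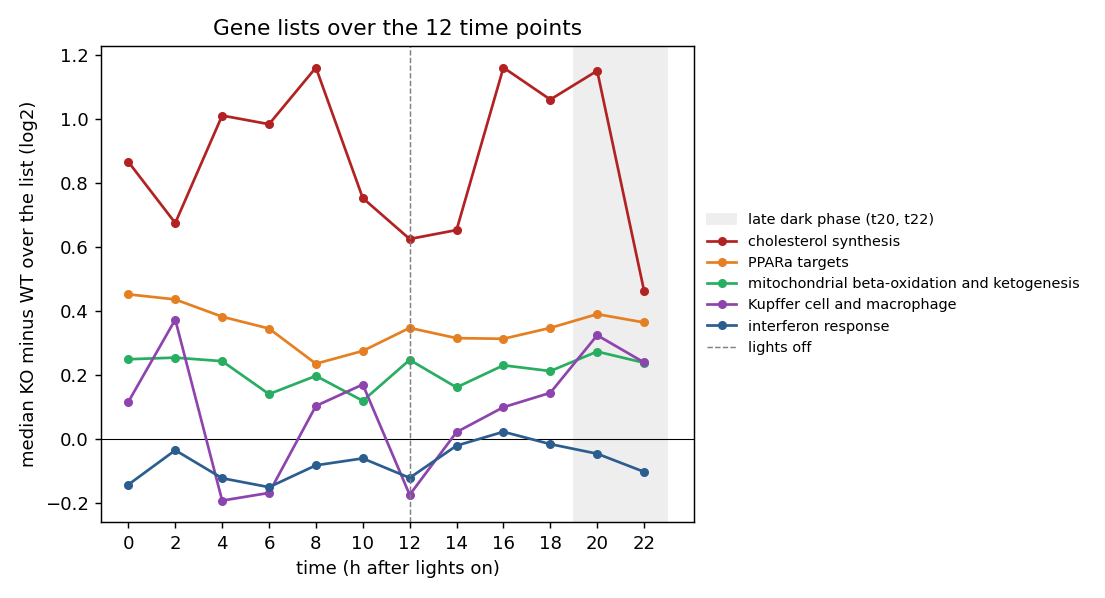
Median KO minus WT over the genes of 5 lists (vertical axis, log2) at each of the 12 time points (horizontal axis, hours after lights on). The grey band marks the late dark phase and the dashed line lights off. The cholesterol list is above zero at every time, from 0.46 at t22 to 1.16, and the PPARα list stays between 0.23 and 0.45.

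Some list medians of the late dark phase lay near those of the rest of the day and others apart, with no test. The periportal median was -0.27, against -0.13 at the 10 other times. At t20 the heme synthesis median (0.195) was the highest of the 12 times. The medians of urea cycle and amino acid breakdown (-0.184) and of glucocorticoid-responsive and metallothionein genes (-0.19) were the lowest of the 12 at t20. These extremes were picked by their values from 41 lists. Other lists had extremes at t20 too, among them gluconeogenesis and fasting (-0.126, lowest), the ATF4 response (-0.0435, lowest) and endothelial markers (0.0225, highest). The median of the cholesterol list was 1.15 at t20, close to that at t16 (1.16) and t8 (1.16), and at t22 (0.46) it was the lowest of the 12 times. The PPARα median was 0.39 at t20 and 0.36 at t22, in a range of 0.23 to 0.45 over the day. The mitochondrial median was 0.27 and 0.24, in a range of 0.12 to 0.27. The lipid droplet median was 0.23 and 0.21, against 0.045 to 0.303 over the 10 other times. The interferon median was -0.05 and -0.10, and the Kupffer cell median, at 0.32 and 0.24, ranged from -0.19 to 0.37 over the other times.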

How the data were processed

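Liver RNA of *Scp2* KO and WT mice was measured on Illumina BeadChips, 3 arrays per genotype at each of 12 time points. The authors deposited the average signal of each of 25697 probes as an intensity, without normalization or background subtraction, and a matrix of normalized log2 values. They name the Partek software. Its version is not given in the sources used. The deposited log2 columns all have a median of 6.69, which quantile normalization of the log2 signals also gives. Columns of the signal data name sets (KO sets 4, 5 and 6, WT sets 6, 9 and 10), so each was assigned to a genotype and time, and what a set stands for is not stated.

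Signals were corrected with normexp (offset 50), quantile normalized and taken as log2 in limma 3.58.1 (R 4.3.3). Of the probes, 23978 have 1 gene name, and the brightest on average represented its gene (16593 genes, 4777 with several probes). A limma model of 24 groups (48 residual degrees of freedom) gave each contrast. The p-values were adjusted by Benjamini-Hochberg over the 16593 genes, and 0.05 was the threshold. It was tested on simulated data. No detection p-values were used, and the number of arrays limits the precision. The study's figure legends give 3 independent animals per time point.

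Named genes are *Scp2*, the 10 largest rises and falls with 1 sign at both times, and up to 4 genes per list of 41 lists. The 10 genes with the lowest p against the other times and 16 of the genes passing here alone were added after their values were seen. The comparison, the lists and the tests were chosen with earlier results of these data known. Same-numbered arrays of the 2 genotypes deviated together with correlations of -0.10 to 0.22 in the late dark phase, over 0.1 in 3 of 6 pairs there. Over all times the correlations were -0.11 to 0.34, over 0.1 in 23 of 36 pairs. The main model did not take the numbers as pairs and leaves out any deviation shared by number. A fit with the number as a block is given at the end. Harvest ran over 3 consecutive days, and whether the numbers mark them is not stated. Alternatives were other scaling, no background correction, the deposited values, leaving out the dimmest 25% of genes, all probes, other thresholds, blocks, array weights, the 12 arrays alone, other comparison times and leaving out arrays. Some items are not reported here.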

Additional observations from a re-analysis of the deposited data

Results flagged for a closer look

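Within the 6 arrays of a genotype in the late dark phase, 172 groups of values (86 genes, KO and WT) were searched for an array far from the rest, by the gap to its nearest neighbour over the whole range. In 16 of them the highest or lowest array stood apart. The limit used lets through about 1 in 20 groups of independent values around a single mean. These groups pool t20 and t22, share arrays and hold genes mostly chosen by their values, so the 16 are not set against that rate. The t20 WT array of set 6 did so for 6 genes. It was lowest for *Pex11a* (8.49, next 9.03), *Plin2* (7.28, next 7.94), *Slc25a20* (9.82, next 10.19) and *Csrp3* (7.17, next 8.05), and highest for *Tff3* (8.78, next 6.90) and *Tuba8* (7.28, next 6.23). Without it *Pex11a*, *Plin2*, *Slc25a20*, *Csrp3* and *Tff3* still passed between genotypes (*Tff3* with a difference of -0.39 in place of -0.77) and *Tuba8* did not.

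The t20 WT array of set 9 was lowest for *Cyp4a12b* (9.12, next 10.42) and *Selenoh* (7.82, next 8.20). Among the t22 WT arrays, set 6 was highest for *Scp2* (11.97) and lowest for *Mug2* (11.12), and set 9 was highest for *Msmo1* (10.96, next 9.97). Among KO arrays, set 4 at t20 was lowest for *Cyp4a14* (11.34, next 12.04) and *Slc25a20* (10.65), set 6 at t22 was lowest for *Fdps* (12.25, next 12.61), set 5 at t22 was highest for *Rora* (7.91, next 7.72) and set 5 at t20 was lowest for *Ap2a2* (7.11, next 7.37). The cause of these values was not tested.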

How the results depend on the processing

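Scaling to a common median gave 187 genes in the late dark phase (138 higher, 49 lower), 75 at t20 (62 and 13) and 36 at t22 (27 and 9). A threshold of 0.01 gave 219 (123 higher, 96 lower), 101 and 55, and array weights gave 200 at t22. Other settings gave 279 to 518 genes in the late dark phase, the 12 arrays fitted alone among them (280, of which 219 were shared). With 1 array left out the counts ranged from 263 to 390 in the late dark phase, from 91 to 282 at t20 and from 52 to 108 at t22. At t20 the count was 91 without the WT array of set 6, 104 without the KO array of set 4, 109 without the KO array of set 6 and 282 without the WT array of set 10. At t22 it was 52 without the KO array of set 4, 56 without the KO array of set 6 and 55 without the WT array of set 10. The comparison with the 10 other times gave 0 to 0 genes, as did that with t0 and t2, t22 against t20 gave 0 to 2, and that with t16 and t18 gave 0 to 1. Against the other 4 dark times 1 gene passed. With another pair in place of the late dark phase, t4 and t6 gave 1 gene (*Noct*), t8 and t10 gave 1 (*Rgs16*) and t12 and t14 gave 33. Of the other probes of named genes, 19 gave the same verdict, 19 kept the sign but lost the call, and 6 turned the sign. Lost calls include those on another probe of *Clstn3* (0.023), *Cyp2b10* (-0.022), *Hilpda* (0.061), *Rora* (-0.027) and *Khk* (-0.43). The sign turned on another probe for *Tmtc4* (0.072), *Noct* (0.089), *Slc25a20* (-0.0091), *Exog* (-0.0086), *Flt1* (0.0057) and *Prdx1* (-0.029). Of the 62 genes named by rule, 35 passed under every alternative in which each gene kept its 1 probe. The fit of all probes is not part of that count. With median scaling 30 of the named genes lost their call, among them *Mug2*, *Slc27a2*, *Rora*, *Acss2*, *Dgat2*, *Gldc*, *Rtf2*, *Tuba8* and *Rae1*. With the 12 arrays fitted alone 28 did, among them *Moxd1*, *Cyp2b10*, *Slc27a2*, *Rora*, *Acss2*, *Flt1*, *Aldh1b1*, *Gldc*, *Aatk*, *Tuba8*, *Rae1* and *Exog*. The cause of these changes was not tested.

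With the replicate number as a block, on the deposited values, 392 genes passed in the late dark phase (350 shared), 180 at t20 and 105 at t22, and none in the comparison with the other times.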
